A study of Mus musculus with 27 samples.

Results

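In tumour-associated macrophages of Ogt knockout mice, 4380 of the 4995 peaks deposited for the transcription factor EGR2 overlapped no EGR2 peak deposited for control macrophages. These KO-only peaks were chosen by their calls: a KO peak belongs to the set if it shares not a single base with any WT peak, and 3 KO peaks inside a stretch of very high signal on chromosome 2 (from 98492699 to 98496706) were left out. The remaining 612 KO peaks overlapped a WT peak and are called shared. Membership says which list names a position. It does not say that EGR2 was absent there in WT cells, because signal between the called peaks was not analysed here.

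The macrophages came from MC38 tumours, which grow from a mouse colon adenocarcinoma line. WT mice carried a floxed Ogt gene without cre. KO mice carried floxed Ogt and Lyz2-cre, a cre recombinase driven from the lysozyme 2 locus of myeloid cells, so the floxed allele is shared and the genotypes differ by cre as well as by the deletion, which cannot be told apart. EGR2 was profiled by CUT&Tag in 3 WT and 3 KO samples with 1 peak list per genotype, and open chromatin by ATAC-seq in 3 WT and 3 KO samples with 1 merged list. The labels give neither the age of the mice nor which animals each sample came from. For the samples titled CUT-Tag they describe formaldehyde fixation and sonication, steps usual in ChIP.

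EGR2 is a zinc finger factor of the early growth response family that binds GC-rich DNA and is induced in macrophages by several stimuli, among them interleukin 4 in the alternative activation programme. OGT, the enzyme whose gene is floxed, attaches the sugar O-GlcNAc to serine and threonine residues of nuclear and cytoplasmic proteins, transcription factors included. A factor at a functional regulatory element commonly sits in open chromatin, which ATAC-seq reads through cutting by a transposase.

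All peaks in the lists have the same width and carry a score given by the authors. The EGR2 scores sum to nearly the same total in both lists, so a score ranks peaks within its own list only. The stretch left out held 3 peaks in each EGR2 list and took 58.1% of the summed score in KO and 66.3% in WT, and 5 ATAC peaks lay in it. After it was removed, 4992 KO peaks, 5405 WT peaks and 30184 ATAC peaks remained. Of the KO peaks, 87.7% were KO-only. The WT list looked alike from the other side, with 4787 WT-only peaks (88.6%) and 618 that overlapped a KO peak. With 1 list per genotype there is no replicate of a peak call, so the comparisons between peak classes below are descriptions without a test. The intervals given with shares of peaks are exact (Clopper-Pearson) 95% binomial intervals and cover counting error only.

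The positions did not line up with GRCm38 (mm10) gene models, although the submitters' notes name mm10. On 7 chromosomes peaks lay beyond the end of the last GRCm38 gene model in the RNA files. The excess was 355 kb on chromosome 4 and 737 kb on chromosome 8, but only 22.7 kb on chromosome 19. The last gene model does not mark the chromosome end, and chromosome lengths were not compared. At unchanged positions 2.68% of the ATAC peaks had their centre within 300 bp of a GRCm38 gene start. With a constant shift chosen in each 10 Mb window to make it as high as possible, the share was 24.6%. Such a choice can only raise the share, and the rise that chance gives was not computed. Each window was searched by itself. The best shift was -23000 bp in every window from 30 to 130 Mb of chromosome 6. It was -109200 bp in every window from 40 to 120 Mb of chromosome 11. Some other chromosomes, chromosome 5 among them, changed shift more often along their length. In 14 of 258 windows the best shift was within 1 kb of no shift. The gain was uneven, from 2 to 52 of 205 peaks in the window at 70 Mb of chromosome 8 but from 9 to 11 of 197 in the next one. Shifts of up to 600 kb in either direction were tried. From 80 Mb of chromosome 8 on, the best shift differed between windows, from -279600 to 527600 bp. Whether a shift above 600 kb would do better there was not tested. Coordinates below are those of the files. They are read as GRCm39, the later mouse build, which no file states. The gene models and promoter sequences at hand are all GRCm38, so no KO-only peak was assigned to a gene and no sequence was read under a peak.

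KO-only peaks were low-scoring compared with the rest of their own list. Their median score was 31.3 (the middle 50% ran from 25.7 to 37.3), against 39.7 (32.1 to 57.7) for shared KO peaks. The score of 48.2% of KO-only peaks, but of 75.5% of shared peaks, was at or above the median of the list. Scores of at least 100 were carried by 41 KO-only peaks and by 72 shared peaks, although the shared class is the smaller one. Only 3 KO-only peaks reached a score of 1000, against 24 shared peaks. These differences are given as a description, since peak calling itself used the signal behind the scores. WT-only peaks were placed in the same way in their list, with a median of 29.0 against 37.1 for WT peaks shared with KO.

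**Figure D1:**
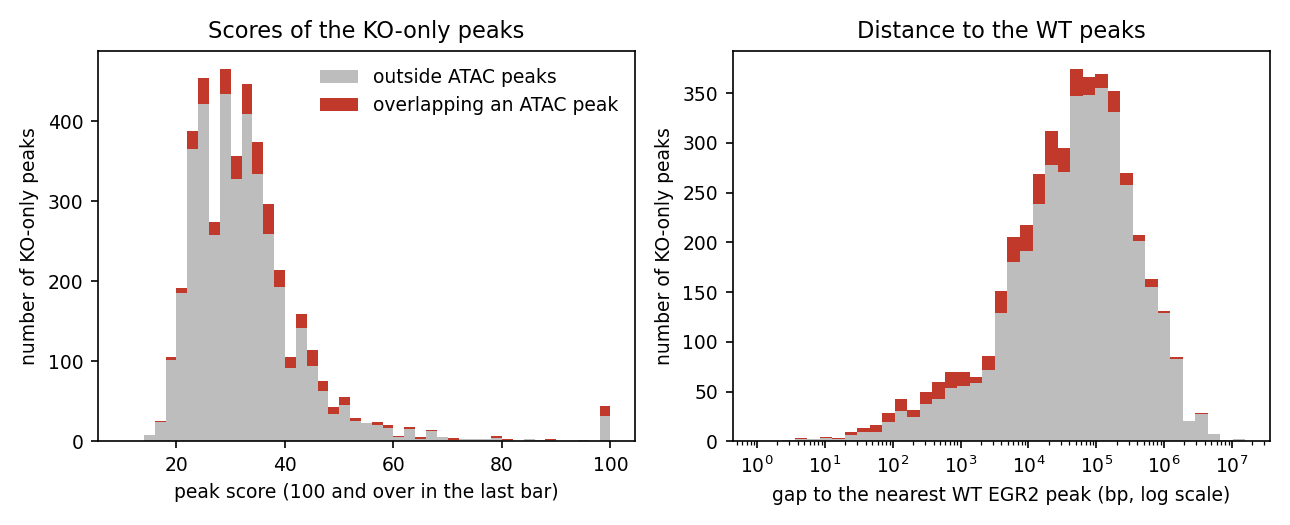
Left, number of KO-only peaks by score in the authors' KO list. Right, number by gap in bp to the nearest WT EGR2 peak on a log scale. Red marks the 399 peaks that overlap an ATAC peak and grey the 3981 that do not. Most scores lie between 20 and 45, and red takes a larger part of the bars at small gaps.

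Several of the strongest members sit beside a WT peak. The highest score of the set, 12546, belonged to a peak on chromosome 9 at 3038459 to 3038959. Its nearest WT peak was 1270 kb away and its nearest ATAC peak 4.37 kb away. Only the stretch on chromosome 2 was left out for its very high signal. Whether this peak or other members lie in stretches of that kind was not tested. The next, with a score of 3241, was on chromosome 7 at 144893872 to 144894372, only 0.225 kb from a WT peak. A peak on chromosome 17 at 13530894 to 13531394 scored 2661 and lay 2.12 kb from a WT peak. None of these 3 overlapped an ATAC peak. The fourth was the highest-scoring member in open chromatin, on chromosome 4 at 118404546 to 118405046, with a score of 997 and a WT peak 0.559 kb away. Its centre was 240 bp from that of an ATAC peak.

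Of the 25 highest-scoring KO-only peaks, 12 had a WT peak within 1 kb and 15 within 5 kb. Over all 41 members that scored at least 100, 16 (39.0%) had a WT peak within 1 kb, against 7.74% of the 4339 below that score. Other strong members were far from any WT peak. A peak on chromosome 3 at 59952057 to 59952557 scored 550, was 1318 kb from any WT peak and overlapped an ATAC peak. One on chromosome 5 at 4103212 to 4103712 scored 268, overlapped an ATAC peak and was 615 kb from a WT peak. One on chromosome 4 at 20191529 to 20192029 scored 182, lay 1526 kb from a WT peak and was 149 kb from the nearest ATAC peak. On chromosome 7, 3 members between 59384167 and 59420683 scored 113, 147 and 192, and none of them overlapped an ATAC peak, although the highest was 0.222 kb from one. Their nearest WT peaks were 25.6 to 61.6 kb away.

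The rule draws a hard line through peaks that are close to each other. At its edge, 37 KO-only peaks ended less than 50 bp from a WT peak (median score 37.5, 11 of them in ATAC peaks), and 48 shared peaks overlapped a WT peak by no more than 50 bp (median score 37.9, 13 in ATAC peaks). Few members were of this kind. The gap to the nearest WT peak was below 1 kb for 352 members (8.04%) and below 5 kb for 711 (16.2%), and its median was 50.8 kb.

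The scores fall on 3 regular series in each list. Nearly every score was a whole multiple, within 0.002, of 1 of 3 step sizes, which were 2.09, 2.14 and 2.33 in the KO list. They held 1444, 1712 and 1817 KO peaks, and 19 peaks were on none. In the WT list the steps were 1.81, 1.898 and 1.95. There were as many steps as samples per genotype, but the sources used here do not say whether a step stands for a sample. KO-only peaks came from all 3 steps, with 1297, 1502 and 1579 members. The share of peaks that were KO-only was 89.8%, 87.7% and 86.9% over the same steps. No step thus made up the set by itself, and the steps serve below as a check within the list.

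Most KO-only peaks were outside open chromatin as the merged ATAC list calls it. An ATAC peak was overlapped by 399 of 4380 (9.11%, interval 8.27 to 10.0), while 3981 touched none. The shares were 29.1% (25.5 to 32.9) of the 612 shared KO peaks and 26.4% (25.2 to 27.7) of the 4787 WT-only peaks. ATAC peaks covered 0.591% of the span between the first and last ATAC peak of each chromosome. All of these shares, that of KO-only peaks included, were larger than that. A peak placed at random would touch an ATAC peak more often than 0.591%, because it has a width of its own. That rate was not computed. Among KO-only peaks the share was 8.56%, 8.46% and 10.2% on the 3 score steps, and among WT-only peaks it was 25.2%, 26.1% and 27.5%. The highest KO-only value was below the lowest WT-only value. The share depends on how overlap is counted, since with at least 250 bp in common it was 4.82% for KO-only and 15.1% for WT-only peaks.

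Among KO-only and among WT-only peaks the ATAC share was larger at higher peak scores. Of KO-only peaks that scored below 25, 4.58% (3.18 to 6.38) overlapped an ATAC peak, and 17.5% (14.03 to 21.5) of those that scored at least 45 did. Split at the median of each list, 6.21% of the lower and 12.2% of the higher KO-only peaks overlapped an ATAC peak, against 14.3% and 39.4% for WT-only peaks.

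**Figure D2:**
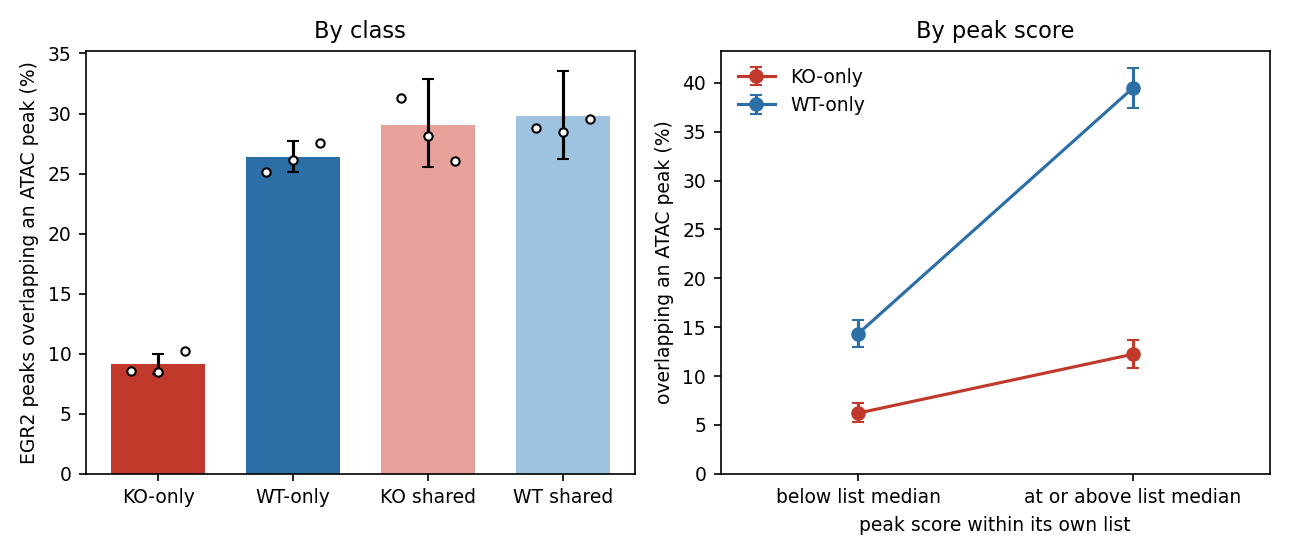
Percent of EGR2 peaks that overlap an ATAC peak by at least 1 bp. Left, by class, with bars for all peaks, exact 95% binomial intervals, and open points for the 3 score steps; KO-only is the lowest class at 9.11%. Right, for peaks below and at or above the median score of their own list, for KO-only (6.21 and 12.2%) and WT-only peaks (14.3 and 39.4%), each with its interval.

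KO-only peaks near a WT peak overlapped ATAC peaks in a larger share than those far from one. Of members with a WT peak less than 1 kb away, 26.7% (22.2 to 31.7) overlapped an ATAC peak. The share was 15.04% at gaps of 1 to 5 kb, 11.6% at 5 to 20 kb, 7.40% at 20 to 100 kb and 4.06% (3.15 to 5.14) at 100 kb or more. In contrast, WT-only peaks showed 28.8% (24.1 to 33.8) within 1 kb of a KO peak and 29.2% (27.1 to 31.3) at 100 kb or more, with 22.5 to 24.9% between. Close to the other genotype's peaks the classes therefore had overlapping intervals, and far from them they did not.

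The smaller KO-only share at larger distance was present on each score step and at both levels of score. From gaps below 1 kb to gaps of at least 100 kb, the KO-only share went from 25.2% to 4.24%, from 19.8% to 3.31% and from 33.6% to 4.63% on the 3 steps. Below the list median it went from 20.9% to 3.02%, and at or above it from 30.04% to 5.37%. The WT-only shares at gaps of at least 100 kb were 28.4%, 27.7% and 30.8% on the steps. Split by score, WT-only peaks were not alike at all distances. At or above the list median their share was 36.4% (30.2 to 43.1) within 1 kb and 47.1% (43.6 to 50.7) at 100 kb or more, and below it 15.1% (9.33 to 22.5) and 14.8%. Within 1 kb and below the list median, the KO-only share of 20.9% (14.3 to 29.0) was thus the larger of the classes, with overlapping intervals. The score differed with distance too, with a KO-only median of 35.5 within 1 kb and of 30.3 at 100 kb or more, and its part in the pattern was not tested beyond that split.

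**Figure D3:**
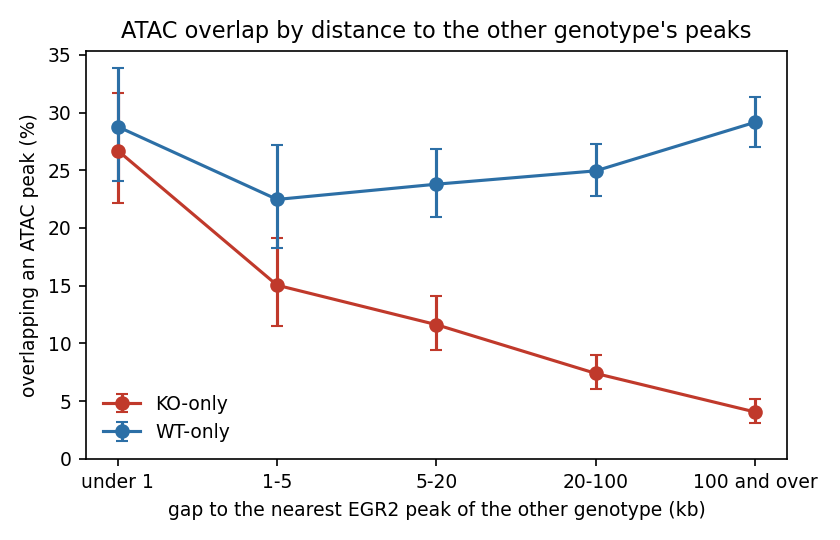
Percent of KO-only (red) and WT-only (blue) EGR2 peaks that overlap an ATAC peak, by the gap in kb to the nearest EGR2 peak of the other genotype, with exact 95% binomial intervals. The red line falls from 26.7% to 4.06%, and the blue line stays between 22.5% and 29.2%.

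Seen from the ATAC list, EGR2 peaks of the KO list were in fewer open regions. A KO peak touched 610 of 30184 ATAC peaks (2.02%) and a WT peak 1547 (5.13%), and 195 ATAC peaks were touched by both. A KO-only peak touched 419 ATAC peaks, of which 32 (7.64%) also touched a WT EGR2 peak that did not reach the KO-only one. By ATAC score, KO-only peaks were in 0.928%, 0.928%, 1.19% and 2.505% of the ATAC peaks in 4 equal groups from the lowest to the highest score. For WT-only peaks these values were 1.76%, 2.24%, 3.95% and 9.91%. In each of the 4 groups the KO-only value was lower.

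Each ATAC peak is named in the list for either the KO or the WT macrophages. KO names were carried by 42.1% of all ATAC peaks, and by 213 of the 397 that lay nearest to and under a KO-only peak (53.7%, interval 48.6 to 58.6). The value was 44.4% (41.6 to 47.2) under WT-only peaks, 67.4% (59.9 to 74.3) under shared KO peaks and 69.1% (61.8 to 75.7) under WT peaks shared with KO. KO-only peaks were thus between WT-only and shared peaks in this share. All 12 members with a score of at least 100 that overlapped an ATAC peak did so at a KO-named one (interval 73.5 to 100). Of the lower-scoring members 203 of 387 did (52.5%, 47.3 to 57.5). This split by score was not made for the other classes, so it is not shown to be particular to KO-only peaks. How the list chose between names where both genotypes had a peak is not given in the sources used here.

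Within the ATAC peaks, EGR2 peaks were not tightly centred in any class. The median distance between the centres of overlapping peaks was 240 bp for KO-only, 199 bp for shared KO and 218 bp for WT-only peaks. Centres lay within 100 bp of each other for 22.6%, 24.2% and 24.2%. Among peaks outside ATAC, the gap to the nearest ATAC peak had a median of 50.01 kb for KO-only and 35.2 kb for WT-only peaks, and it was below 1 kb for 7.95% of all KO-only and 14.1% of all WT-only peaks.

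KO-only peaks were found on every autosome and on X. Their density was lowest on chromosome 3 (0.926 per Mb) and highest on chromosome 7 (2.71 per Mb), with a median of 1.75 over 20 chromosomes. The X chromosome carried 229 KO-only peaks but 467 ATAC peaks, or 5.23% and 1.55% of these lists. There 2 of 229 KO-only peaks (0.873%) overlapped an ATAC peak, against 14 of 197 WT-only peaks (7.11%). The highest shares in open chromatin were on chromosome 11 (16.8%) and chromosome 17 (16.3%), which held 20.9 and 18.1 ATAC peaks per Mb, against 2.81 on X. On all 20 chromosomes the WT-only share was the higher. Across chromosomes, KO-only density correlated with WT-only density (Pearson r = 0.91) and less with ATAC density (0.63, against 0.75 for WT-only peaks). These correlations describe 20 chromosomes that share gene content and base composition between lists.

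Chromosomes differed in the balance of KO-only to WT-only peaks. Chromosome 11 had 273 KO-only and 391 WT-only peaks, a ratio of 0.698, and chromosome 12 had 178 and 235 (0.757). Chromosomes 10 and X leaned the other way, with 226 and 194 (1.16) and with 229 and 197 (1.16). On 6 of 20 chromosomes KO-only peaks were the more numerous.

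**Figure D4:**
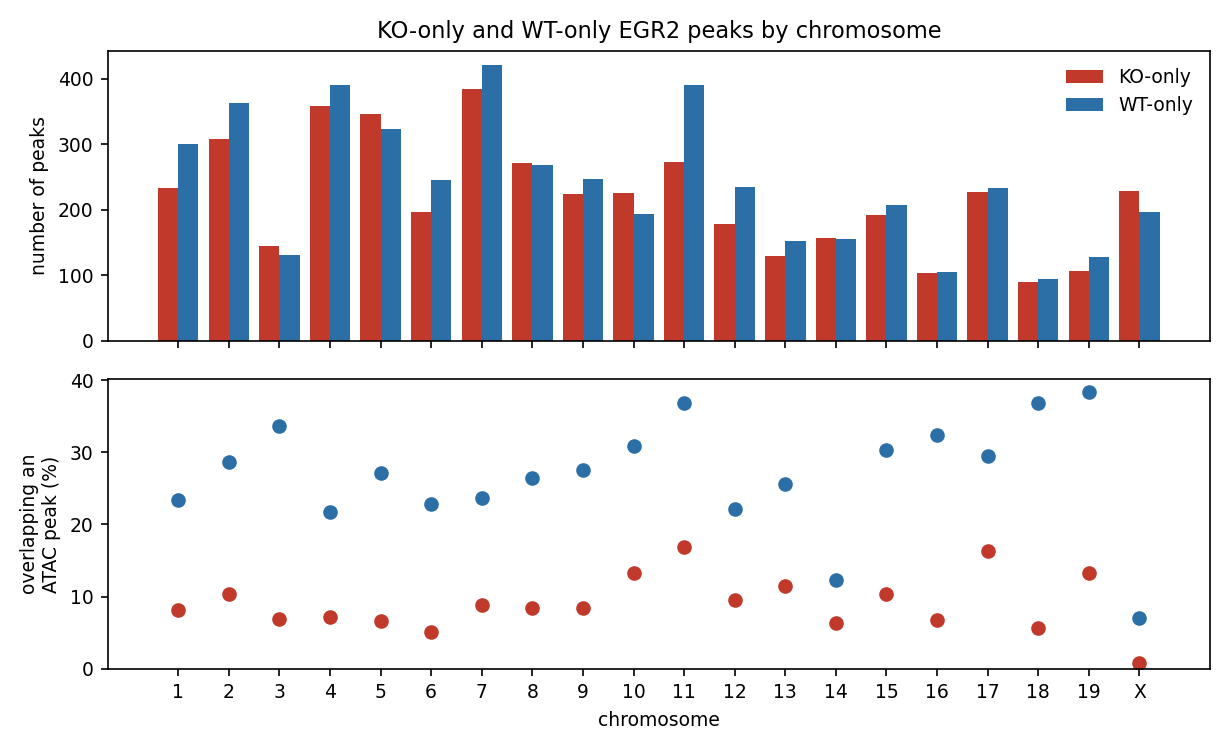
Top, number of KO-only (red) and WT-only (blue) EGR2 peaks on each chromosome. Bottom, percent of these peaks that overlap an ATAC peak. The blue point is above the red one on each of the 20 chromosomes, and the lowest red point is X at 0.873%.

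Some stretches held many members. KO-only peaks fell in 1430 bins of 1 Mb, of which 575 held a single one and 275 held 5 or more, and 190 of the bins held no ATAC peak. The densest bin was 146 to 147 Mb of chromosome 4, with 34 KO-only peaks (median score 39.6) that all missed the 4 ATAC peaks there. Its neighbours at 145 to 146 and 147 to 148 Mb held 17 and 21, of which 1 overlapped an ATAC peak. These 3 bins also held 13 to 20 WT-only peaks each. The bin at 3 to 4 Mb of the X chromosome was different, with 21 KO-only peaks, 1 WT-only peak and no ATAC peak. At 31 to 32 Mb of X there were 17 KO-only peaks against 5 WT-only peaks, again without an ATAC peak. Other dense bins were rich in open chromatin. At 34 to 35 Mb of chromosome 17, 10 of 20 KO-only peaks overlapped ATAC peaks, of which the bin held 135, and at 80 to 81 Mb of chromosome 10 the count was 9 of 29, beside 99 ATAC peaks. These shares were not general in such bins. At 120 to 121 Mb of chromosome 11 the count was 0 of 18, beside 69 ATAC peaks. It was 2 of 23 at 112 to 113 Mb of chromosome 12 (55 ATAC peaks) and 0 of 26 at 85 to 86 Mb of chromosome 1 (25 ATAC peaks).

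At a finer scale members were mostly single. With gaps below 5 kb joined, 399 KO-only peaks (9.11%) fell into 191 groups of no more than 3, against 11.8% of WT-only peaks, whose largest group held 6. These 399 grouped members and the 399 members in open chromatin are separate counts.

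Macrophage RNA libraries, 3 per genotype and labelled as samples of their own, give the level of the factor profiled and of the deleted gene. Ogt RNA was 61.0, 58.7 and 49.2 CPM (counts scaled to TMM-normalised library size) in the WT libraries and 32.0, 39.1 and 33.0 in the KO libraries, which do not overlap (ENSMUSG00000034160.13, log2 fold change -0.72, SE 0.0953, edgeR adjusted p = 2.978e-09). The counts cover the whole gene, and reads outside a deleted part can remain, so this does not measure intact Ogt. Egr2 RNA was 268, 255 and 273 CPM in WT and 138, 155 and 135 in KO (ENSMUSG00000037868.15). It fell 1.87-fold (log2 fold change -0.90, SE 0.0449, edgeR adjusted p = 9.478e-28). The KO peak list thus comes from cells of a genotype with less Egr2 RNA, and the part of that in the calls was not tested.

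Of the 6 EGR factors and NAB corepressors, 5 could be tested, and 3 fell and none rose, in a comparison where 18.9% of 12939 genes fell and 37.7% were called in either direction. Egr1, an immediate early relative that binds the same kind of site, had 506 to 536 CPM in WT and 382 to 404 in KO (log2 fold change -0.42, edgeR adjusted p = 1.965e-19). Egr3 had 15.2 to 21.1 and 9.66 to 12.8 CPM (-0.76, edgeR adjusted p = 7.033e-05). The WT and KO values of Egr1 and of Egr3 did not overlap. Nab1 and Nab2 encode corepressors that bind EGR factors. Nab1 averaged 115 ± 6.38 CPM in WT and 122 ± 5.47 in KO (SD, n = 3 libraries, log2 fold change 0.08, edgeR adjusted p = 0.2727). Nab2 averaged 69.8 ± 1.41 and 75.7 ± 4.10 CPM (0.12, edgeR adjusted p = 0.2035), so neither passed the test. The WT and KO values overlapped for Nab1 and lay just apart for Nab2, at no more than 70.7 and at least 71.2 CPM. Egr4 had at most 2.15 CPM in any library and was not tested.

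**Figure D5:**
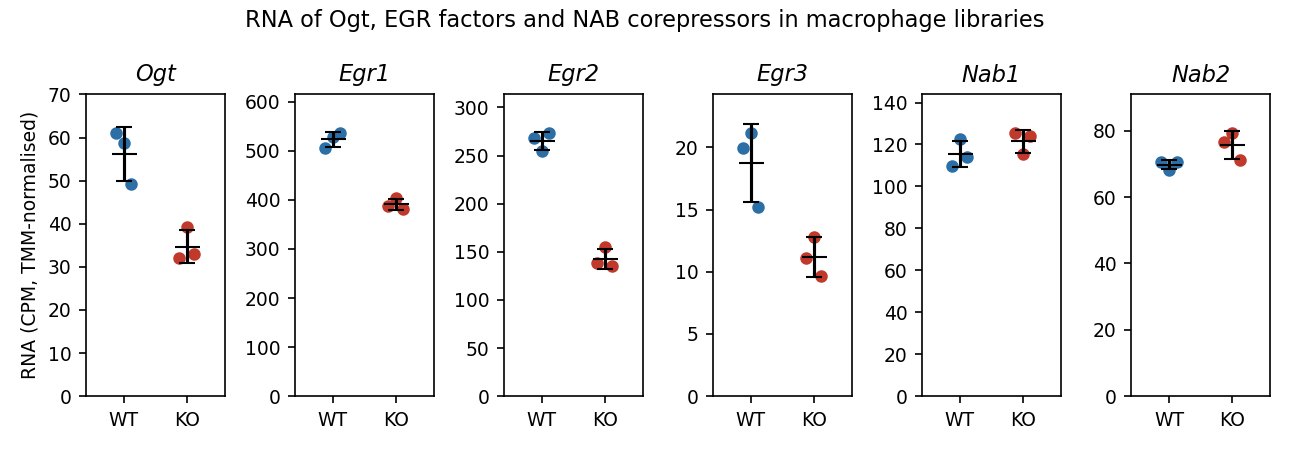
RNA level in CPM of Ogt, 3 EGR factors and 2 NAB corepressors in 3 WT (blue) and 3 KO (red) macrophage libraries, with mean and SD in black. WT and KO points are apart for Ogt, Egr1, Egr2 and Egr3, and overlap for Nab1, while those of Nab2 (up to 70.7 and from 71.2) nearly touch.

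The RNA libraries held markers of the cell type on their label and of others. The 10 macrophage markers summed to 10250 to 10488 CPM in WT and 9883 to 10003 in KO libraries, with 4 higher and 5 lower in KO. The 18 T and NK cell markers summed to 315 to 323 CPM in WT and 512 to 530 in KO, and 14 of the 17 tested rose and 1 fell, against 18.8% of all genes that rose. The 1 that fell was Klrb1c, an NK cell receptor gene (7.85 and 4.23 CPM on average, 1.88-fold lower). Ncr1, another NK cell receptor gene, was not tested and had at most 1.17 CPM in any library. The list joins both cell types, so its sum does not speak for each of them. B cell markers summed to 54.6 to 57.4 and 111 to 118 CPM, and 3 of the 6 tested rose and 1 fell. Most of that sum was Ighm, the immunoglobulin mu heavy chain (44.1 and 98.38 CPM on average), which rose. Cd79a and Igkc also rose, 6.36-fold and 3.77-fold, from low averages of 0.556 and 1.63 CPM in WT to 3.44 and 6.46 in KO. Cd79b, like Cd79a a part of the B cell receptor, fell 1.87-fold. Dendritic cell markers summed to 563 to 583 and 349 to 362 CPM, with 2 of 9 higher and 5 lower. Their members went both ways, since Xcr1 and Clec9a, markers of type 1 conventional dendritic cells, rose 3.16-fold and 2.24-fold, whereas the fall of the sum lay mainly in Cacnb3 (3.05-fold lower), Ccr7 (2.57-fold lower) and Fscn1 (2.33-fold lower). Neutrophil markers summed to 95 to 105 and 101 to 111 CPM, but most of this was Csf3r, the receptor of a granulocyte growth factor, which rose 1.18-fold. Of the other 5 tested, 3 fell, namely S100a9 by 4.51-fold, Cxcr2 by 3.45-fold and Mmp8 by 1.59-fold. Their levels were low, at averages of 3.85, 2.05 and 7.48 CPM in WT and 0.866, 0.556 and 4.65 in KO. Ly6g, which was not tested, had at most 0.261 CPM in any library. Epithelial or tumour cell markers summed to 28.4 to 31.2 and 22.8 to 24.98 CPM, with 1 of 4 higher and 2 lower. Those of fibroblasts and endothelium summed to 63.9 to 78.8 and 91.4 to 102 CPM, with 3 of 7 higher and 0 lower. Pecam1 made up most of that sum (58.5 CPM in WT and 70.3 in KO on average) and rose. Kdr and Col1a1 also rose, from low averages of 5.93 and 0.946 CPM in WT to 13.0 and 4.79 in KO. The sum thus speaks mainly for Pecam1. Calls are at an edgeR adjusted p below 0.05, and the members named here were chosen after their values were seen. Of all genes tested, 18.8% rose and 18.9% fell. In such bulk samples more cells of a type and more RNA per cell cannot be told apart. Whether the CUT&Tag and ATAC samples held other cells to the same degree was not tested, and the part of other cells in the KO-only peaks was not tested.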

How the data were processed

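Per the labels, EGR2 CUT&Tag and ATAC-seq samples were summarised by the authors as peak lists, 1 per genotype for EGR2 and 1 merged list for ATAC-seq. The deposited score per peak was used to rank and split peaks within a list. No label or header names the peak caller, the aligner or the pooling of samples, and the submitters' processing notes name mm10. KO-only peaks were KO peaks with no WT peak overlapping by 1 bp. Gaps are between peak edges. Peaks were handled in Python 3.11.15 with pandas 2.3.3, numpy 2.4.6 and scipy 1.17.1.

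The authors deposited RNA read counts per gene. Per the file headers, featureCounts (2.0.6) counted each mate over GENCODE M10 exons of mm10, with no strand setting. Totals ran from 7032540 to 32406170 counts per library. Of 48440 gene identifiers, 48058 had a symbol. After filterByExpr and TMM scaling, KO was compared with WT by the 2-sided quasi-likelihood test of edgeR (4.0.16, in R 4.3.3), with Benjamini-Hochberg adjustment over all genes tested, and genes with an adjusted p below 0.05 were called. The test, the overlap code and the search for score steps were tested on simulated data. The labels do not say that libraries came from separate animals, so p-values measure the spread between these libraries. Same-numbered WT and KO libraries showed no shared deviation, and the test did not pair them.

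The rule for named genes (genes at KO-only peaks and fixed-list genes near one) could not be applied, because the peaks did not line up with the gene models. Members, lists and tests were chosen with earlier results of these data known. The genes named are Ogt and the fixed list of EGR factors and corepressors. Peaks named are the highest-scoring members, and examples among them and dense bins were picked after their values were seen. Single-cell, ChIP-seq and histone data were not used here.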

Additional observations from a re-analysis of the deposited data

How the results depend on the processing

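The number of KO-only peaks was 4380. It was 4629 when sharing needed 250 bp, 4028 without a WT peak within 1 kb, 4542 against WT peaks at or above their list median, and 2110 for KO peaks at or above theirs, where fewer peaks were counted. Leaving out the WT peaks of 1 score step at a time, chosen after seeing the data, gave 4549 to 4599. The KO-only share in ATAC peaks (9.11%) was 4.82% at 250 bp, 12.2% at or above the median score, 7.57% without a WT peak within 1 kb and 6.84% within 5 kb, and 8.50 to 9.45% without 1 score step. The WT-only share (26.4%) was 15.1% at 250 bp, 39.4% at or above the median score, and 25.7 to 26.9% under the other settings. The 5 kb setting, the score steps and the WT-only settings were added after seeing the data. The KO-only share was the lower in each.

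Of all genes in RNA, 4874 were called, 5102 with DESeq2, 4792 without a filter, 4877 as read pairs and 3991 to 4587 without 1 library. With the replicate number as a block 4691 were called. Deviations of same-numbered WT and KO libraries correlated by -0.0048 to 0.0112. No pairing by number was thus seen in these values, which cannot tell whether same-numbered libraries were handled together. All 60 alternative values of the 6 named genes kept direction and side of the threshold. Alternatives on gene starts, motifs and genes at KO-only peaks were not run, since the peaks did not line up with the gene models. The depth of the peak samples is unknown here, and its part in which peaks were called was not tested.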
